A study of Mus musculus with 12 samples.

Results

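Protease-activated receptor 2 (PAR2) is encoded in the mouse by F2rl1, and RNA abundance was compared here between osteoblast cultures labelled F2rl1 -/- (KO, for knockout) and wild-type cultures (WT), both kept in medium conditioned by prostate tumour cells. The comparison uses 6 of the 12 samples of the study: the 3 titled KO MDA and the 3 titled WT MDA. Primary osteoblasts of C57Bl/6J pups were freed from the calvaria, the flat skull bone, and precultured for 48 h. For the following 4 days they were given culture medium (20% serum) in which MDA PCa 2b, a human prostate cancer line, had grown for 48 h. The other 6 samples are the same genotypes in unconditioned medium, labelled F2rl1 -/- or WT, and serve for the estimate of the spread and for the same contrast without tumour-cell medium. All 12 samples share the strain, the skull-bone source and the label osteoblast-like. KO and WT below are the genotypes as labelled, and libraries are numbered 0 to 2 in each group as the authors' table numbers them. Whether the 3 samples of a group came from different animals is not given in the labels, and the p-values below rest on the spread among the samples as they are, which may be technical.

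PAR2 is a receptor with a built-in ligand: a serine protease such as trypsin, matriptase or a kallikrein cuts its outer end, and the new end folds back to switch it on. It signals through G proteins, mainly of the Gq class, and through beta-arrestins. In bone the receptor has been studied in osteoblasts for its bearing on inflammatory mediators such as interleukin-6, which also acts on the formation of osteoclasts. Prostate tumours often spread to bone and release proteases there, which is the setting that the conditioned medium models.

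The 6 conditioned libraries held 15155753 to 16956754 fragments. KO library 0 stood apart from KO libraries 1 and 2, and this touches every result below. On the first principal component of the 6 libraries, which held 67.5% of the variance, KO library 0 lay at -37.5, among the WT libraries at -30.2, -0.461 and -44.8, whereas KO libraries 1 and 2 lay at 46.9 and 66.0. WT library 1 was alone at one end of the second component, at 42.6. The deviations of KO library 0 from its group correlated with those of library 0 of the unconditioned KO group (r = 0.354 across genes, which are not independent), and those of KO libraries 1 and 2 with their numbers there (0.241 and 0.317), although library 1 correlated slightly more with number 2 (0.283). Deviations within a group cancel out, so these correlations depend on each other. In conditioned medium KO library 0 likewise correlated with WT library 2 (0.443), and KO libraries 1 and 2 with WT library 1 (0.480 and 0.332). In the unconditioned groups, used for the spread, WT libraries 0 and 1 were equal for 91.8% of 17538 genes, differed by less than the sampling noise and were counted as 1 sample. Also there, 1 sample titled WT carries the knockout genotype label and was kept by its title. Each result is therefore given with all 3 KO libraries and, where it differs, without KO library 0.

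The targeted gene did not separate the genotypes in conditioned medium. F2rl1 lies on chromosome 13, 95511730 to 95525240 in GRCm38 (XLOC_006189). Its fragments numbered 31, 13 and 12 in the 3 KO libraries and 14, 23 and 14 in WT. As CPM, which is fragments scaled to library size, this is 1.93, 0.791 and 0.647 against 0.901, 1.55 and 0.927, with the highest value in KO library 0. Its log2 difference, KO minus WT, was -0.01 (SE 0.44, adjusted p = 0.989) by edgeR's quasi-likelihood test, and it turned positive when KO library 1 or 2 or WT library 1 was left out. The ranges overlap, and a count over the whole gene cannot show whether part of it was deleted. In unconditioned medium F2rl1 was higher in every KO library, at 2.23, 2.33 and 3.10 CPM against 1.64 and 1.40 in the distinct WT libraries. The log2 difference there was 0.74 (SE 0.48, adjusted p = 0.998 by edgeR). F2r, which encodes the thrombin receptor PAR1, was abundant at 233, 261 and 251 CPM in KO and 203, 242 and 215 in WT (log2 difference 0.18, SE 0.14, adjusted p = 0.489), and the ranges overlap. The other two receptors of the family, F2rl2 and F2rl3, had 0 to 4 fragments in any of these libraries and were not tested.

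The osteoblast label was checked against its markers. Col1a1 and Col1a2, the chains of bone's main collagen, were abundant, at 6654 to 16239 CPM for Col1a1 and 5185 to 13761 CPM for Col1a2. Runx2, the lineage's master factor, was present at 87.8, 73 and 70.1 CPM in KO and 82.3, 82 and 80.3 in WT. Of the markers of the mature cell, Bglap (osteocalcin) was below 0.8 CPM and Ibsp (bone sialoprotein) below 1 CPM in all 6 libraries, while Spp1 (osteopontin) was at 7242, 2488 and 1591 CPM in KO and 6447, 2199 and 11778 in WT. Cartilage transcripts were present too: Col2a1, the main cartilage collagen, stood at 1550.2, 711 and 621 CPM in KO and 1765, 1508 and 1582 in WT.

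With all 3 KO libraries, no gene passed the test. At an adjusted p under 0.05 (Benjamini-Hochberg over 13603 genes) edgeR called 0 genes (0%), and the smallest adjusted p was 0.249. At an unadjusted p under 0.05 there were 1897 genes (13.9%), 1287 higher in KO (9.46%) and 610 lower (4.48%). DESeq2 called 2 genes (0.0147%; 2117 at an unadjusted p under 0.05) and limma-trend 0 (1870 at an unadjusted p under 0.05). The median log2 difference over all genes was -0.01. Counting libraries instead, all 3 KO libraries lay above all 3 WT libraries for 632 genes (4.65%) and below them for 574 (4.22%), together 1206 genes (8.87%).

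Without KO library 0 the result was another one. KO libraries 1 and 2 against the 3 WT libraries gave 4507 called genes of 13575 (33.2%), with 2349 higher (17.3%) and 2158 lower (15.9%), and 1270 of them differed by more than 2-fold. Leaving out KO library 1 or KO library 2 instead left 0 calls, with 559 and 352 genes at an unadjusted p under 0.05. Once KO library 0 was put back, 499 of the 4507 genes kept their groups apart, beside 1206 of all 13603 genes tested (8.87%). On a scale where 0 is the WT mean and 1 the mean of KO libraries 1 and 2, KO library 0 had a median position of -0.08 over the 4507 genes (interquartile range -0.20 to 0.05). It was nearer to the WT mean for 98.7% of them and on the far side of it for 66.9%. WT libraries 0 to 2 had medians of -0.02, 0.08 and -0.07. These positions describe genes chosen for differing in the other libraries, and carry no test.

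**Figure D1:**
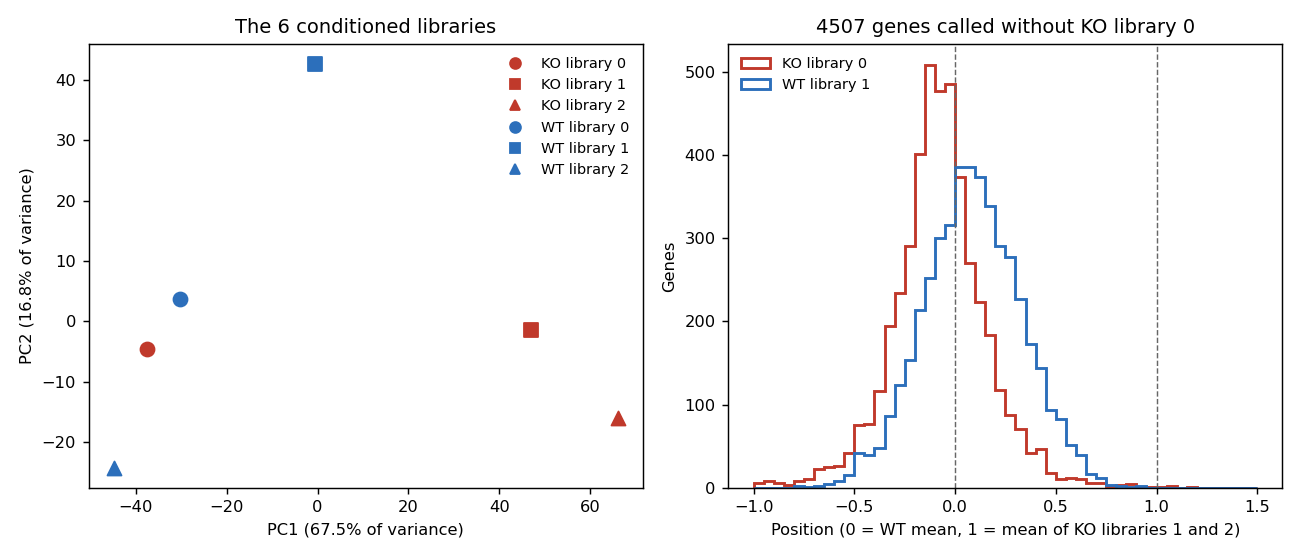
Left, the 6 conditioned libraries on the first 2 principal components of log2 CPM (x axis 67.5% of the variance, y axis 16.8%), red for KO and blue for WT, with the marker giving the library number. Right, the number of genes (y axis) by position (x axis: 0 is the WT mean, 1 the mean of KO libraries 1 and 2; values beyond the axis are put in the end bins) for KO library 0 and, for comparison, WT library 1, over the 4507 genes called without KO library 0. KO library 0 sits among the WT libraries on the left and has a median of -0.08 on the right.

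The authors' deposited table of tests per transcription start site reported more. Of 16176 start-site groups tested there between WT and KO in conditioned medium, 1165 were marked significant, 701 higher and 464 lower in KO, in 1161 genes. Its log2 values for some of the genes described next are the authors' own: 3.03 (q = 0.00110) for Il6, 4.11 (q = 0.00110) for Atf3, 2.05 (q = 0.00110) for Hmgn5, 1.5 (q = 0.00110) for Myc, -1.65 (q = 0.00110) for Bmp7 and -1.27 (q = 0.00110) for Wnt16, all in the authors' deposited table. Other genes described next had larger q-values there, such as Tyms (log2 1.42, q = 0.056) and Mlycd (log2 0.50, q = 0.480). The settings of that test are not given in the sources used here.

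Pisd-ps3 (XLOC_024266, an unplaced contig, 51965 to 60879) is a pseudogene. Its parent gene, Pisd, encodes a mitochondrial phospholipid enzyme. Pisd-ps3 was the gene with the smallest p. It had 38.6, 44.2 and 39.8 CPM in KO libraries 0 to 2 and 67, 73.2 and 77.8 CPM in WT, so KO library 0 lay with the other KO libraries and the highest KO library was 1.51-fold below the lowest WT library. The log2 difference was -0.83 (SE 0.11, adjusted p = 0.249), and DESeq2 called it (adjusted p = 2.13e-07). In unconditioned medium the same gap was present, at 29.1, 24.5 and 26.8 CPM in KO and 55.8 and 62.5 in the distinct WT libraries, with a log2 difference of -1.14 (SE 0.12, adjusted p = 0.0355) by edgeR, the single call there (0.00735%). Fragments may have been split between this pseudogene and similar copies, so its level is uncertain.

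The named genes above WT in every KO library differed in where KO library 0 lay: next to WT in some, level with the other KO libraries in others. None passed edgeR's threshold. Hmgn5 (chromosome X, 109004537 to 109013380), a nucleosome-binding protein, had 6.60, 23.9 and 29.8 CPM in KO against 4.76, 4.86 and 5.43 in WT (log2 difference 2.00, SE 0.44, adjusted p = 0.357). It is the other gene that DESeq2 called (adjusted p = 0.0491). Myc (chromosome 15, 61985341 to 61990361), the growth-promoting transcription factor, had 74.8, 155 and 235 CPM in KO and 39.1, 51.8 and 72.2 in WT, and its lowest KO library was barely above its highest WT library. Its log2 difference was 1.51 (SE 0.37, adjusted p = 0.357). Tyms, which makes thymidylate for DNA synthesis, stood at 11.5, 32.6 and 37.3 against 8.56, 11.2 and 11.3 CPM, with KO library 0 next to the WT libraries. Adamts1, a protease that cuts aggrecan and versican in the matrix, had 173, 281 and 288 CPM in KO and 162, 162 and 148 in WT. Wdr53 had 10.4, 15.7 and 18.9 against 7.98, 7.97 and 8.27 CPM and Dtd2 12.7, 18.7 and 20.1 against 9.20, 9.65 and 10.9. In other genes KO library 0 was level with the other KO libraries. Among these were Tcea2, a transcription elongation factor, at 5.48, 6.15 and 5.77 against 4.44, 4.46 and 3.90 CPM, and 1110059G10Rik, at 17, 18.4 and 17.5 against 13.9, 10.3 and 13.2. Further ones were Angptl4, a secreted inhibitor of lipoprotein lipase, at 18.5, 18.6 and 20.6 against 10.3, 8.24 and 16.9 CPM, and Mlycd, which breaks down malonyl-CoA, at 7.72, 7.61 and 8.30 against 5.66, 4.66 and 6.29. Gadd45g, a growth-arrest and stress gene, had 58.7, 48 and 79.4 against 36.7, 33.9 and 46.9 CPM, and here the highest value was in KO library 2 and KO library 1 was the lowest of the 3. Log2 differences were 0.89 (SE 0.20) for Wdr53, 1.39 (SE 0.40) for Tyms, 0.65 (SE 0.17) for Adamts1, 0.71 (SE 0.23) for Angptl4 and 0.51 (SE 0.23) for Mlycd.

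Scarcer genes also separated the groups. Hsf2bp had 1.12, 1.46 and 1.78 CPM in KO against 0.193, 0.203 and 0.463 in WT, Rundc3b 0.996, 0.791 and 1.08 against 0.193, 0.135 and 0.265, and the chloride channel gene Cftr 0.747, 1.10 and 1.13 against 0.129, 0.270 and 0.463. Ccl5, a chemokine that attracts T cells and monocytes, had 1.37, 1.83 and 2.32 against 0.579, 0.540 and 0.860 CPM. All 4 were scarce, and a library holds few fragments of each. Gpr179 was at 0 in the 3 WT libraries and at 0.187, 1.28 and 0.970 CPM in KO, for which no fold is given.

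Genes below WT in every KO library included several signalling and matrix genes. Bmp7 (chromosome 2, 172868012 to 172940321), a bone morphogenetic protein, had 4.92, 1.52 and 1.40 CPM in KO and 9.65, 6.28 and 8.21 in WT (log2 difference -1.63, SE 0.56, adjusted p = 0.357). Wnt16 (chromosome 6, 22288227 to 22298522), a Wnt ligand known for its part in cortical bone, had 7.22, 3.71 and 2.86 against 14.7, 9.05 and 9.46 CPM (log2 difference -1.27, SE 0.34). In both genes KO library 0 lay between the other KO libraries and WT. Igfbp6 (chromosome 15, 102144186 to 102149512), which binds insulin-like growth factor 2, had 18, 20.7 and 18.3 CPM in KO and 36.7, 30.9 and 28 in WT (log2 difference -0.75, SE 0.25), and here all 3 KO libraries were level. Tnxb, the matrix protein tenascin-X, had 8.52, 12.7 and 7.49 against 37.7, 20.1 and 14 CPM (log2 difference -1.33, SE 0.38), with WT library 0 far above the other two. Gucy1a2, a subunit of the nitric oxide receptor guanylate cyclase, stood at 11.3, 6.33 and 5.71 against 19.8, 15.9 and 15.3 CPM (log2 difference -1.13, SE 0.27). Gas7 had 18.9, 13.4 and 7.49 against 38, 34.6 and 23.5 CPM, and Nes, the intermediate filament nestin, 16.4, 12 and 16.6 against 21.8, 23.9 and 24.7. Acan, the cartilage proteoglycan aggrecan, had 96.9, 39.9 and 39.8 CPM in KO and 231, 123 and 112 in WT (log2 difference -1.40, SE 0.39). Cartilage markers as a whole are given with the other cell types further on.

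**Figure D2:**
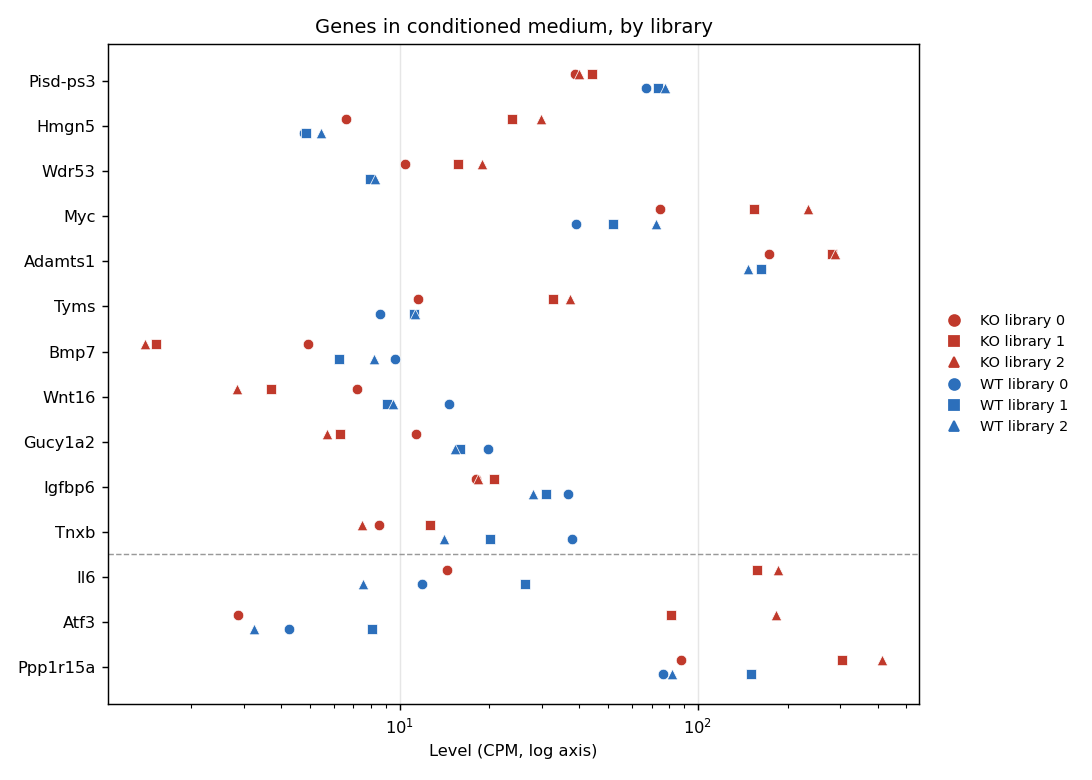
Level (x axis, CPM, log axis) of 14 genes in the 6 conditioned libraries, one row per gene, red for KO above and blue for WT below within a row, with the marker giving the library number. In the 11 genes above the dashed line all KO libraries lie on 1 side of all WT libraries. In Il6, Atf3 and Ppp1r15a below it, KO libraries 1 and 2 are high. KO library 0 lies within the WT range in Il6 and Ppp1r15a and below it in Atf3.

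Il6, the interleukin named above, was high in 2 of the 3 KO libraries. Il6 (XLOC_016622, chromosome 5, 30013161 to 30019968) had 14.4, 157 and 186 CPM in KO libraries 0 to 2 and 11.8, 26.3 and 7.54 CPM in WT. KO library 0 lay within the WT range, below WT library 1. The log2 difference was 2.97 (SE 0.88, adjusted p = 0.357) with all libraries and 3.50 (adjusted p = 0.00462) without KO library 0. In unconditioned medium it was 1.05 (SE 0.95, adjusted p = 0.998), and the interaction, the difference between the genotype effects in the 2 media, was 1.92 (SE 1.23, adjusted p = 0.819). Il6 stood there at 12.5, 59.1 and 50.2 CPM in KO libraries 0 to 2 and 21.0 and 18.2 in the distinct WT libraries. The KO libraries were thus split in that medium too, with library 0 below WT and libraries 1 and 2 above. Of 20 tested genes of the interleukin-6 family and its signalling, 1, Il6, was called higher (5%) and 5 lower (25%) without KO library 0, against 17.3% and 15.9% of all genes. Socs1, an inhibitor of cytokine signalling, had 6.91, 4.93 and 4.42 CPM in KO against 9.91, 9.32 and 7.81 in WT, below WT in every library. Stat3, which carries the signal to the nucleus, and Il6st, the shared receptor chain, were called lower without KO library 0, at -0.49 (adjusted p = 0.0137) and -0.83 (adjusted p = 0.0125). In KO library 0, Stat3 stood at 411 CPM, within the WT range, and Il6st at 1441 CPM, above all WT libraries.

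Several stress-induced and immediate early genes, and Hey1 of another class, were high in KO libraries 1 and 2 and not in KO library 0, as Il6 was. Atf3 had 2.86, 81 and 183 CPM in KO and 4.25, 8.10 and 3.24 in WT (log2 difference 4.10, SE 1.05, adjusted p = 0.357). Its log2 difference was 4.68 (adjusted p = 0.000983) without KO library 0. Ppp1r15a, which restarts translation after stress, had 87.4, 304 and 414 against 76.3, 151 and 81.7 CPM. Nr4a3, an orphan nuclear receptor of the immediate early class, had 2.12, 15.9 and 21.1 against 3.99, 1.35 and 2.85 CPM, and Hey1, a Notch and BMP target, 1.49, 13.8 and 16.3 against 1.93, 2.23 and 1.92. In each, KO libraries 1 and 2 were above the other 4 libraries. KO library 0 lay within the WT range for Ppp1r15a and Nr4a3 and below it for Atf3 and Hey1. Other immediate early genes had another order: Fos was at 194, 90.4 and 46.1 against 48.7, 64.8 and 116 CPM and Egr1 at 449, 289 and 198 against 74.8, 119 and 344, and KO library 0 was the highest of all 6 in both. Of 26 tested genes of this class, 4 were called higher (15.4%) and 0 lower without KO library 0, against 17.3% and 15.9% of all genes; the 4 were Atf3, Nr4a3, Nr4a2 and Jund.

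Promoters of RefSeq (build GRCm38.p6, 250 bases before to 50 after the start) are shown for the genes above and for the interferon-stimulated and stress genes described next, with the letters of a motif in capitals, on either strand. The interferon-type motif (ISRE-like) is GAAA, any 2 bases and GAAA. The NF-kB-type motif is GGGA, any base and TTTCC. The CARE motif, known as a site of the stress factor ATF4, is TGATG, any base and AA. The 5 promoters are printed to show where these letters lie; each was searched for the motif of its own list. A match is a description of letters, not of binding, and a missing match says nothing about the factor.

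Rsad2 promoter: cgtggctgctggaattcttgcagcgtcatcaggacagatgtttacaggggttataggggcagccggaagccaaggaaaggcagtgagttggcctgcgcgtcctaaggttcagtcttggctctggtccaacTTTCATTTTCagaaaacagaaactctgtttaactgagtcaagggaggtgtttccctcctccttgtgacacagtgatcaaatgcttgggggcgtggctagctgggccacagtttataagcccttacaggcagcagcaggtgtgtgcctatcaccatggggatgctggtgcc
Isg15 promoter: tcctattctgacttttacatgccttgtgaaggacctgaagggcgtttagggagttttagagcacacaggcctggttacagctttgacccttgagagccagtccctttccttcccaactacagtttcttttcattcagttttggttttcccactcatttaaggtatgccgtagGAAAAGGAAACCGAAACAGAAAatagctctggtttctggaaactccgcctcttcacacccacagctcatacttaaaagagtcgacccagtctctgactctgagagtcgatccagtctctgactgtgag
Il6 promoter: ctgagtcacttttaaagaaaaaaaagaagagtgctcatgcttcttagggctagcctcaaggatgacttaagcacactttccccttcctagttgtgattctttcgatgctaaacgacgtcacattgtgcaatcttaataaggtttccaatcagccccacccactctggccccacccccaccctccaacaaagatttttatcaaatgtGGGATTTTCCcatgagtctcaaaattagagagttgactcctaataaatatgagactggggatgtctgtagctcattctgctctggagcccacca
Nupr1 promoter: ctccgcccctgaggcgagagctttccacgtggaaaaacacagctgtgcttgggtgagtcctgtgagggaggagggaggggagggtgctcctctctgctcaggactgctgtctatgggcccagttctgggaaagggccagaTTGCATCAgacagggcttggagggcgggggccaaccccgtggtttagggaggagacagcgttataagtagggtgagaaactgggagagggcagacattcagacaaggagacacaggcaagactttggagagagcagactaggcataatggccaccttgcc
Slc7a11 promoter: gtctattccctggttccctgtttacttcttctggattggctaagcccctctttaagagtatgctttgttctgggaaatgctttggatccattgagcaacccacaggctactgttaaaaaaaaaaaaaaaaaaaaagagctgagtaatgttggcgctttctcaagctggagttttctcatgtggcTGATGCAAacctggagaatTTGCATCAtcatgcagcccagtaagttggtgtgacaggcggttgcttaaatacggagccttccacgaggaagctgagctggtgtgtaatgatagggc

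The Rsad2 stretch lies at chr12:26456403-26456702, minus strand, the Isg15 stretch at chr4:156200769-156201068, minus strand, the Il6 stretch at chr5:30012864-30013163, plus strand, the Nupr1 stretch at chr7:126625421-126625720, minus strand and the Slc7a11 stretch at chr3:50443564-50443863, minus strand. The interferon motif was in the promoter of 17 of the 28 matched genes of the interferon list (60.7%), against 3.99% of all 27025 genes with a promoter in the table, and in Isg15 3 overlapping copies of it run into each other. The NF-kB motif was in the Il6 promoter, the only 1 of 18 matched genes of the interleukin-6 list (5.56%), and in 4 of 23 chemokine genes (17.4%), against 0.466% of all genes. The CARE motif was in 12 of 30 matched genes of the stress list (40%), against 4.51% of all. The lists were made of genes known for these responses, and the RefSeq promoter is the same for every sample. These shares therefore describe the lists and not the libraries compared here. Nupr1 and Slc7a11 both carry it, and their log2 differences below have opposite signs. Tested members of the interferon list with the motif had a median log2 difference of 0.998 (14 genes) and those without it 0.67 (11 genes); for CARE in the stress list the medians were 0.38 (12) and 0.40 (18).

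Genes of the integrated stress response, which cells switch on when amino acids run short or protein folding fails, were high in KO libraries 1 and 2 and also in WT library 1. A list's value in a library is the median over members of log2 CPM relative to each gene's mean. For this list it was -0.55, 0.44 and 0.68 across the 3 KO libraries and -0.44, 0.38 and -0.58 across WT. Of 38 members, 34 had positive log2 differences, with a median of 0.45, and none was called. With KO library 0 left out the median was 0.72 and 8 were called higher (21.1%), near the 17.3% of all genes, with 0 lower. With 1 library left out the median ranged from 0.21 without KO library 2 to 0.81 without WT library 1. Ddit3, the factor CHOP, had 66.1, 429.5 and 653 CPM in KO and 102, 219 and 67.2 in WT, and Nupr1, a stress-induced nuclear protein, 28.1, 92.7 and 129 against 33.9, 58.1 and 25.3, with log2 differences of 2.08 (adjusted p = 0.0113) and 1.51 (adjusted p = 0.0183) without KO library 0. Slc7a11, the cystine carrier, was the other way, at 20.8, 23.1 and 32.7 against 52.8, 29.2 and 41.7 CPM and a log2 difference of -0.69 (SE 0.23, adjusted p = 0.357), and the ranges overlap. In unconditioned medium the list's median log2 difference was 0.45.

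Interferon-stimulated genes, which cells use against viruses, were high in KO libraries 1 and 2, with KO library 0 in the WT range. The list's values were -0.52, 0.80 and 1.18 in KO and -0.31, 0.10 and -1.16 in WT, on the same scale. Of 34 tested genes 33 had positive log2 differences, with a median of 0.99, and none was called. KO libraries 1 and 2 alone against WT had 23 called higher (67.6%, against 17.3% of all genes) and 0 lower. The median ranged from 0.59 without KO library 2 to 1.37 without WT library 1. Rsad2, the antiviral protein viperin, had 1.87, 13.6 and 24.2 CPM in KO and 2.38, 2.70 and 0.927 in WT. Its log2 difference without KO library 0 was 3.25 (adjusted p = 0.00161). Isg15, a ubiquitin-like protein, had 31.8, 236 and 316 CPM in KO and 36.9, 50.8 and 13.2 in WT, and Mx1, which traps viral particles, 0.436, 11.5 and 7.06 against 0.837, 1.08 and 0.331. In unconditioned medium the median difference was -0.02. Of chemokines and other inflammatory mediators 6 were called higher (26.1%) and 2 lower (8.70%) of 23 without KO library 0, against 17.3% and 15.9% of all genes. Among the higher were Cxcl10, which attracts T cells, at 1.68, 4.50 and 9.70 against 2.96, 0.743 and 1.39 CPM, and Cxcl3, which attracts neutrophils, at 2.68, 8.95 and 15 against 0.708, 1.15 and 4.90, while Ccl2 was at 79.1, 92 and 75.1 against 117, 69 and 98.9. The NF-kB motif of Cxcl3 is of the same kind as that of Il6. The list of NF-kB members, feedback and adhesion targets was not high as a whole. Of its 19 tested genes 13 had negative log2 differences, with a median of -0.11, and none was called. Without KO library 0, 2 were called higher (10.5%) and 4 lower (21.1%), against 17.3% and 15.9% of all genes. A part of NF-kB in these differences was not tested.

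Ribosome biogenesis genes, which build the ribosome in the nucleolus, had the largest share of members called of all lists without KO library 0. All 30 members had positive log2 differences, with a median of 0.62 and none called. Without KO library 0, 26 were called higher (86.7%, against 17.3% of all genes) and 0 lower. The median ranged from 0.36 without KO library 2 to 0.88 without KO library 0. The list's values were -0.31, 0.42 and 0.70 for KO and -0.32, -0.28 and -0.20 for WT, so KO library 0 lay with WT. In unconditioned medium the median difference was 0.07. Rrs1, an assembly factor, had 40.3, 139.7 and 192 CPM in KO and 49.2, 52.3 and 48.8 in WT, and Ncl, the abundant nucleolar protein nucleolin, 573, 1471 and 1675 against 627, 541 and 646. Nop56, a core protein of the particles that modify ribosomal RNA, had 56.6, 123 and 163 against 54.5, 57.9 and 64.4 CPM. Myc, described above, is known to drive this class and was counted in the list. Rrs1, Ncl and Nop56 were picked after their values were seen.

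Cell cycle genes as a whole did not separate the genotypes, but Tyms, Cdk2 and 4 helicase subunit genes were called higher without KO library 0. Mcm2, a subunit of the replicative helicase, had 26.1, 82.3 and 85.5 CPM in KO and 22.1, 32 and 34.7 in WT, and Mcm7, another subunit, 11, 23.7 and 25.5 against 7.59, 11.1 and 12.6. Their log2 differences without KO library 0 were 1.52 (adjusted p = 0.00207) and 1.25 (adjusted p = 0.00292). Rrm2, which makes deoxynucleotides, had the opposite sign at -1.35 (adjusted p = 0.0571). Bub1, of the spindle checkpoint, had 9.27, 5.05 and 5.01 against 3.15, 3.51 and 14.1 CPM, with WT library 2 the highest. Of 36 tested cell cycle genes 6 were called higher without KO library 0 (16.7%) and 0 lower, the higher share near the 17.3% of all genes. On the common scale WT library 0 stood at the lowest and WT library 2 at the highest value, at -0.72, -0.26 and 0.76 in WT against 0.17, 0.03 and 0.16 in KO, so the spread among WT libraries was wider than the difference between genotypes.

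**Figure D3:**
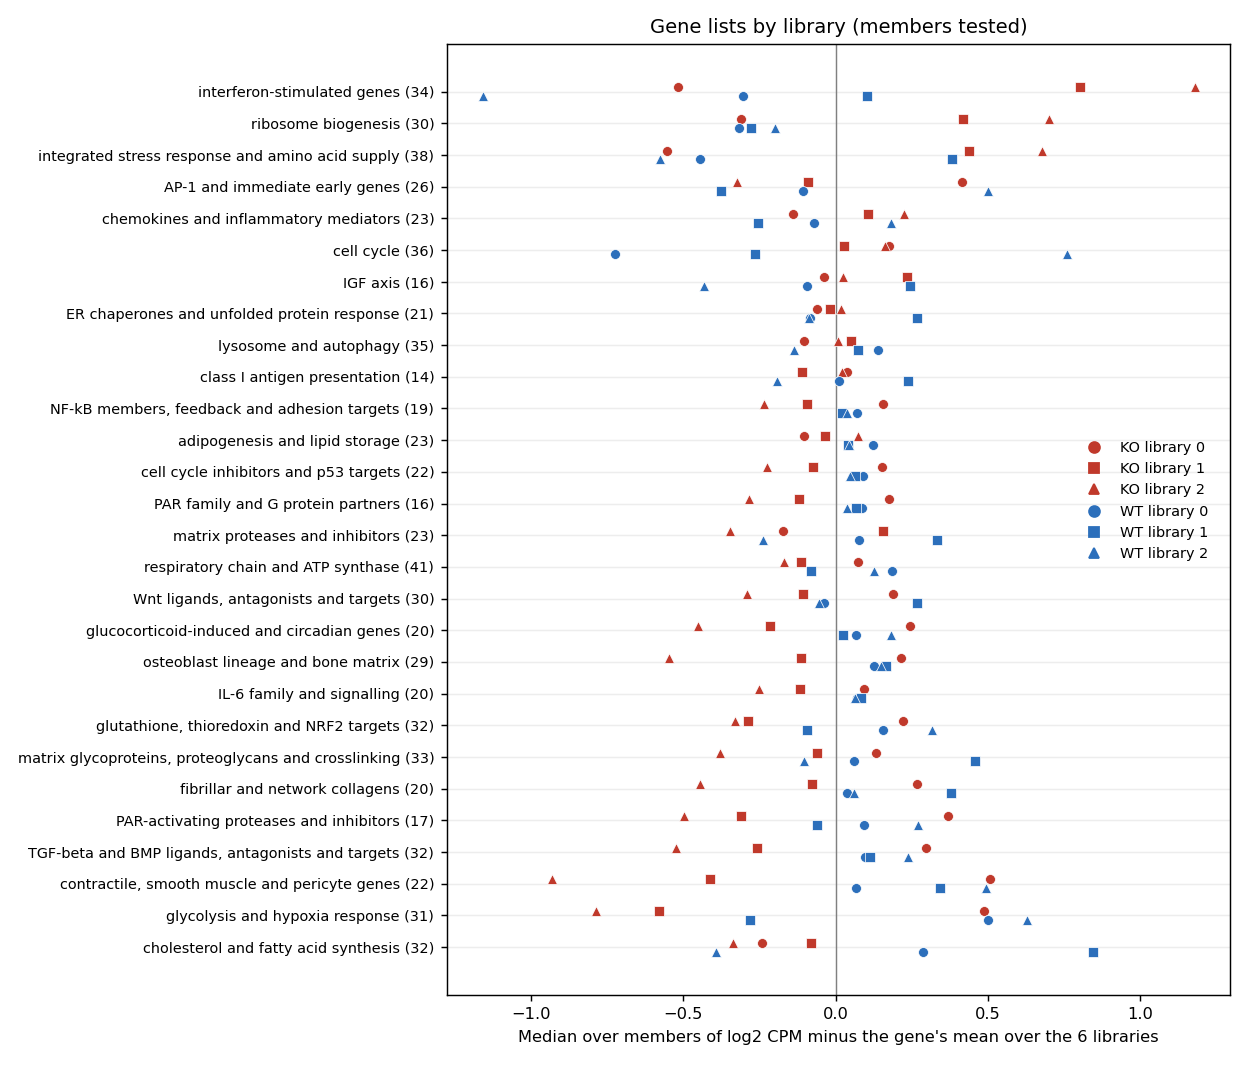
Median over the tested members (number in brackets) of log2 CPM minus the gene's mean over the 6 conditioned libraries (x axis) for 28 gene lists (y axis, ordered by the median log2 difference of KO minus WT), red for KO and blue for WT, with the marker giving the library number. In the interferon and ribosome biogenesis lists KO libraries 1 and 2 lie to the right of the other 4 libraries; in glycolysis they lie to the left, and KO library 0 lies with WT.

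**Figure D4:**
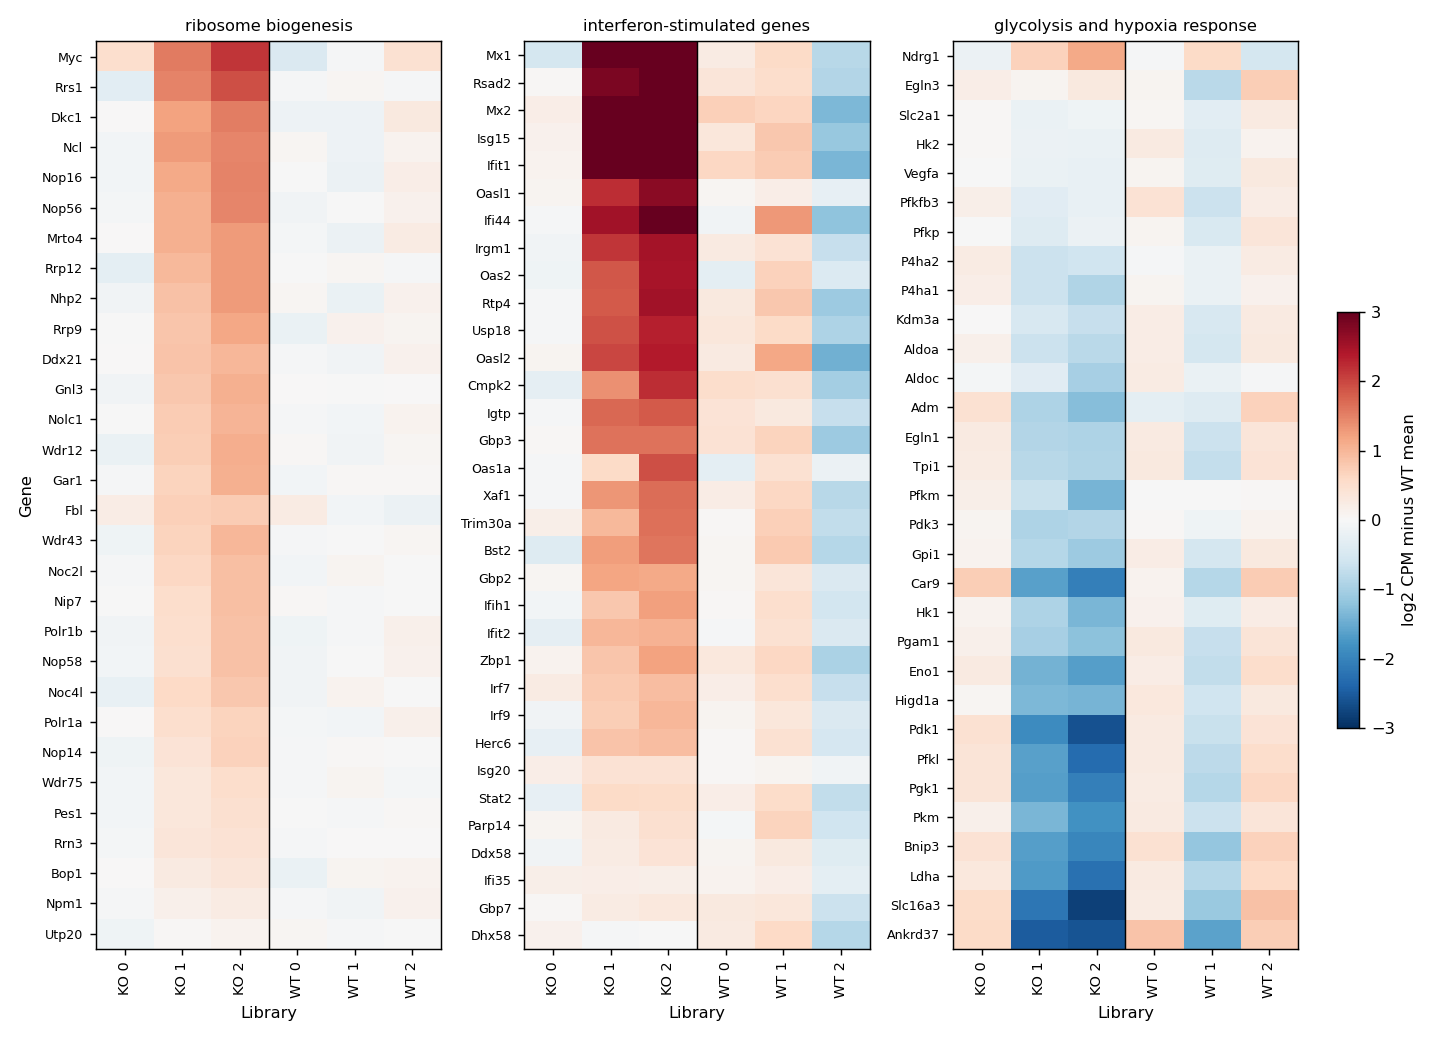
Difference from the WT mean (colour, log2 CPM, red higher and blue lower, capped at 3 in either direction) for tested members of 3 gene lists (rows, 1 interferon list member not shown) in the 6 conditioned libraries (columns). Ribosome biogenesis and interferon-stimulated genes are higher, and glycolysis genes lower, in KO libraries 1 and 2, and KO library 0 resembles the WT libraries.

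Glycolysis and hypoxia response genes were low in KO libraries 1 and 2. Of 31 tested genes 29 had negative log2 differences, with a median of -0.49, and none was called. When KO library 0 was left out, 22 were called lower (71%, against 15.9% of all genes) and 1 higher. The list's median ranged from -0.26 without KO library 2 to -0.98 without KO library 0. Ldha, which turns pyruvate to lactate, had 1258, 314 and 215 CPM in KO and 1232, 558 and 1526 in WT. Pdk1, which holds pyruvate out of the mitochondria, had 76, 14.9 and 8.95 against 66.5, 34.7 and 74.2 CPM, and Slc16a3, the lactate exporter, 103, 15.6 and 9.92 against 83.1, 32.3 and 129.6. In these 3 genes KO library 0 was high with WT libraries 0 and 2, and WT library 1 lay between them and KO libraries 1 and 2. Vegfa, a hypoxia-induced growth factor, was nearly level, at 206, 182 and 178 against 219, 161 and 255 CPM. Some glycolytic enzymes have processed pseudogenes, among which fragments can be split: Gapdh, a standard abundant enzyme, held only 3 to 13 fragments in a library, where Actb held 14965 to 30544.

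Genes of the NRF2 response, which guards against oxidants, were mostly low in KO libraries 1 and 2. Leaving out KO library 0, 14 of 32 were called lower (43.8%) and 3 higher (9.38%), against 15.9% and 17.3% of all genes. With all libraries the median was -0.24 with none called, and it ranged from -0.11 without KO library 2 to -0.48 without KO library 0. Nqo1, a quinone reductase, had 77.8, 13.6 and 7.76 CPM in KO and 112, 28.9 and 115 in WT, and Cat, which breaks down hydrogen peroxide, 179, 77.5 and 52.8 against 198, 142 and 188. Metallothionein genes Mt1 and Mt2, which bind metals, were the other way, at 174, 539 and 604 CPM for Mt2 in KO and 233, 253 and 183 in WT (1.37, adjusted p = 0.00143, without KO library 0). Cholesterol and fatty acid synthesis genes had a median of -0.61, and 30 of 32 had negative differences. The median was -0.24 without WT library 1 and -0.88 without WT library 2. Without KO library 0, 5 were called lower (15.6%), close to the 15.9% of all genes. The list's values were -0.24, -0.08 and -0.34 in KO and 0.29, 0.84 and -0.39 in WT, and WT libraries 0 and 1 were above every KO library while WT library 2 was below every one. Acly, which makes cytosolic acetyl-CoA, was below WT in every KO library, at 235, 173 and 132 against 285, 361 and 239 CPM (log2 difference -0.71, SE 0.22, adjusted p = 0.357), and Fasn, the fatty acid synthase, at 239, 237 and 206 against 288, 350.0 and 256.

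Contractile and smooth muscle genes, which mark myofibroblasts and pericytes, were low in KO libraries 1 and 2. Of 22 tested, 19 had negative log2 differences (median -0.45) and none was called, while 14 were called lower without KO library 0 (63.6%, against 15.9% of all genes). The median ranged from -0.18 without KO library 2 to -1.01 without KO library 0. Acta2, smooth muscle actin, had 952, 217 and 150.2 CPM in KO and 462, 1004 and 832 in WT, and Tagln, transgelin, 443, 89.3 and 64.5 against 228, 314 and 423. KO library 0 was within or above the WT range in both. Genes of the TGF-beta and BMP pathways had a median of -0.30, and 11 of 32 were called lower (34.4%) and 2 higher without KO library 0, against 15.9% and 17.3% of all genes. That median ranged from -0.08 without WT library 2 to -0.59 without KO library 0. The BMP targets Id1 and Id3 were at 117, 29.6 and 22.8 against 108, 59 and 137 and 272, 99.7 and 102 against 230.1, 194 and 269 CPM. Hey1, a Notch and BMP target of the same list with values given above, was the other way, high in KO libraries 1 and 2. The antagonist Grem1, which binds BMPs, was at 27.8, 11.7 and 5.88 against 44, 24.8 and 41.2 CPM.

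Many matrix and bone genes were also low in KO libraries 1 and 2, though WT library 1 was as low in some. Of 20 collagen genes, 9 were called lower without KO library 0 (45%, against 15.9% of all genes) and 0 higher. Their median ranged from -0.05 without KO library 2 to -0.44 without KO library 0. Col12a1, which links collagen fibrils, had 3609.6, 1207 and 848 CPM in KO and 2612, 2896 and 2942 in WT, and Col6a3 1199.7, 516 and 329.6 against 1083, 1237 and 1075. Of 29 osteoblast and bone matrix genes 11 were called lower (37.9%, again against 15.9%) and 2 higher without KO library 0. This median ranged from -0.01 without KO library 2 to -0.37 without KO library 0. Of the 10 tested osteoblast markers, 2 were called lower without KO library 0 (20%), near the share of all genes. Sp7, the factor that follows Runx2 in osteoblast differentiation, had 30.5, 3.16 and 1.73 CPM in KO and 14.5, 5.81 and 31.5 in WT, and Tnn, tenascin-W of bone, 71.9, 4.63 and 1.46 against 21.2, 17.8 and 66.6. For Spp1, whose values are given above, the log2 difference was -0.85 (SE 0.64, adjusted p = 0.474), and the WT libraries themselves spanned more than 5-fold. Tnfsf11, the osteoclast-inducing ligand RANKL, was at 142, 52.8 and 47.6 against 54.3, 47.6 and 123 CPM and its decoy receptor Tnfrsf11b at 52.6, 22 and 28.1 against 55.9, 42.9 and 53.9. In Spp1 and Tnfsf11 WT library 1 was below KO library 1.

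Partners of the receptor itself were measured as well. Of 16 tested receptors, G proteins and effectors, 12 had negative log2 differences, with a median of -0.14 (from -0.07 without KO library 2 to -0.29 without KO library 0). Gnaq, the alpha subunit of Gq, was below WT in every KO library, at 109.4, 94.9 and 92.1 against 113, 119 and 109.7 CPM (log2 difference -0.20, SE 0.10), but KO library 0 was practically level with WT library 2. Arrb1, beta-arrestin 1, was at 11.1, 3.83 and 3.72 against 10.9, 5.94 and 15 CPM and Arrb2 at 5.48, 5.72 and 5.07 against 4.44, 5.33 and 5.29. Without KO library 0, 7 were called lower (43.8%, against 15.9% of all genes) and 1 higher, among the lower Gnai2 at -0.80 (adjusted p = 0.00202) and Plcb3, a phospholipase that Gq activates, at -0.68 (adjusted p = 0.00229). Among the proteases that can cut PAR family receptors and their inhibitors, none of 17 tested was called with all libraries, and the median was -0.28. It ranged from -0.06 without WT library 2 to -0.62 without KO library 0. Without KO library 0, 6 were called lower (35.3%, against 15.9% of all genes) and 0 higher. St14, matriptase, an activator of PAR2, was scarce at 3.92, 2.80 and 1.51 against 4.38, 4.66 and 4.24 CPM. F3, tissue factor, which starts clotting, was at 163, 89.5 and 88.2 against 121, 145 and 147 CPM, and Tfpi, its inhibitor, was above WT in every KO library, at 121, 129 and 117 against 107, 107 and 93.1.

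**Figure D5:**
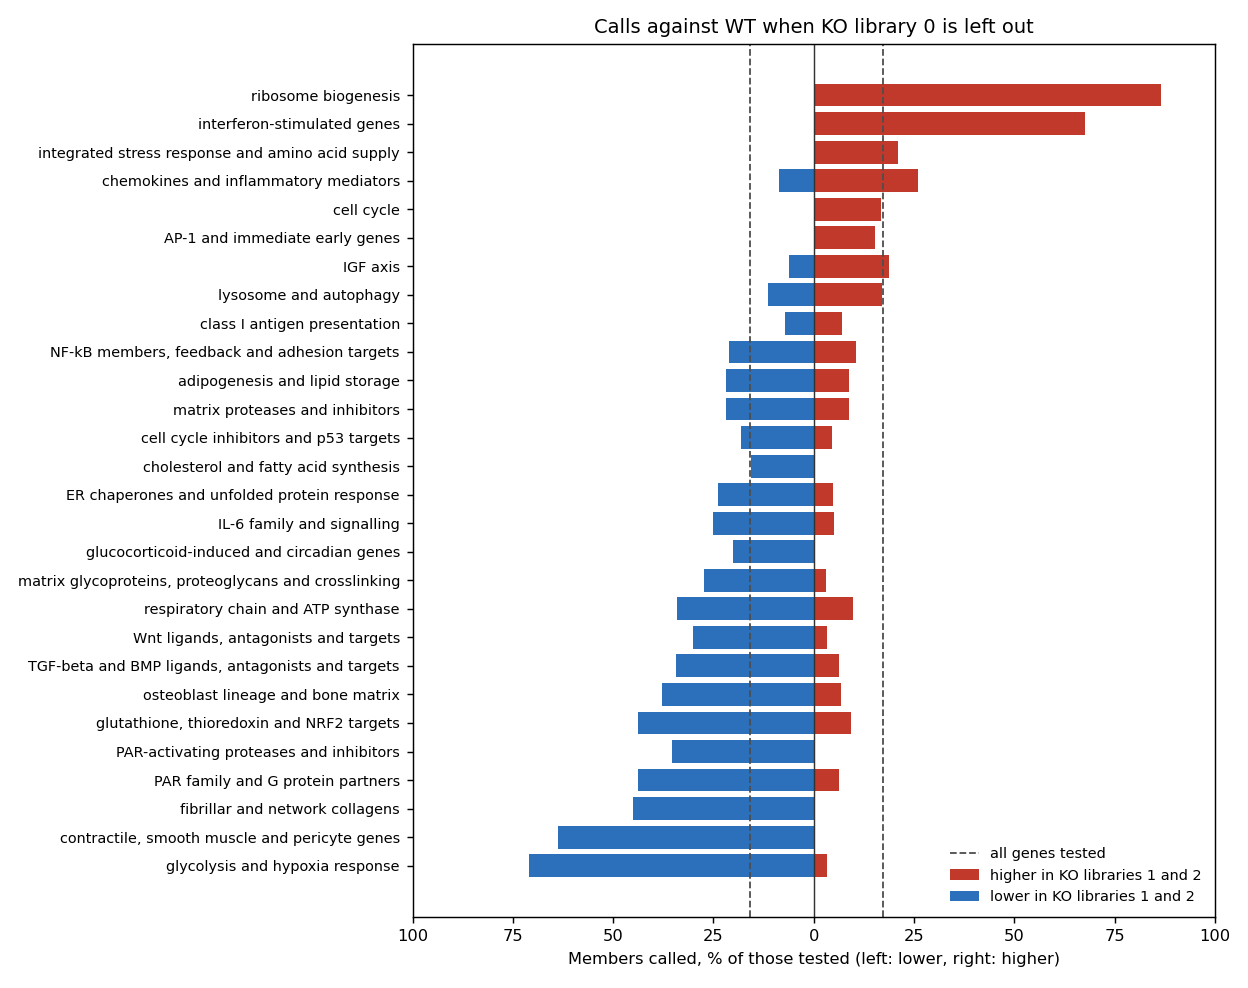
Share of the tested members of 28 gene lists (y axis) called higher (red, right) or lower (blue, left) in KO libraries 1 and 2 against the 3 WT libraries (x axis, % of members tested, edgeR adjusted p under 0.05), with dashed lines at the shares of all genes, 17.3% higher and 15.9% lower. Ribosome biogenesis (86.7% higher) and glycolysis (71.0% lower) reach furthest to either side; with KO library 0 included no member of any list was called.

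Markers of other cell types moved with the libraries too. The summed CPM of 16 skeletal muscle markers was 48, 78.3 and 50.1 for KO and 28.5, 219 and 32.4 for WT, so WT library 1 stood far above the rest. Myod1, a defining factor of muscle, was at 0.187, 1.03 and 0.431 against 0.193, 1.82 and 0.331 CPM, and the median log2 difference of the 14 tested markers turned from -0.59 to 1.43 without WT library 1. The summed level of 11 cartilage markers was 1938, 952 and 859.7 in KO and 2455, 1877 and 1992 in WT, and 5 of 11 tested were called lower without KO library 0 (45.5%, against 15.9% of all genes). Macrophage and leukocyte markers summed to 32.5, 22 and 11.9 CPM in KO and 29.9, 24.4 and 41.6 in WT, and their defining receptor Csf1r was at 2.99, 0.913 and 1.08 against 2.83, 1.96 and 3.38 CPM. Keratinocyte markers summed to 4.17, 3.96 and 8.95 CPM in KO and 9.46, 14.4 and 3.31 in WT. Krt5, of the basal layer of skin, was at 0, 0.304 and 0.108 CPM in KO and 3.48, 5.27 and 0.0662 in WT. The set had no common direction: of 6 tested keratinocyte markers, 3 had negative log2 differences and 3 positive. All KO libraries lay above WT in 2 of them and below WT in 1, beside 4.65% and 4.22% of all genes tested. These markers were scarce, so their order across libraries rests on few fragments. Endothelial markers summed to 226, 196 and 202 CPM in KO and 225, 212 and 219 in WT, of which Eng, found on stromal cells too, gave 217, 179.8 and 186 and 209, 197 and 209. Their part in the differences above was not tested, and in bulk RNA fewer cells of a type and less RNA per cell cannot be told apart.

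In unconditioned medium, the single gene called was Pisd-ps3, whose log2 difference there was larger than in conditioned medium, as were those of F2r at 0.52 (SE 0.16) and Nes at -0.70 (SE 0.23). The next 6 genes were picked for their difference in conditioned medium, so their values are a description only. Log2 differences were -0.14 (SE 0.48) for Hmgn5, 0.13 (SE 0.40) for Myc, -1.09 (SE 0.63) for Bmp7, -0.37 (SE 0.38) for Wnt16, 0.19 (SE 0.28) for Igfbp6 and -1.61 (SE 0.48) for Tnxb, the last again larger. The interaction test called 0 of 13603 genes by edgeR (0%; 412 at an unadjusted p under 0.05) and 0 by DESeq2 (501), and without KO library 0 of the conditioned group it called 1419 genes. This test did not pair libraries across the media, because library numbers are not tied to sample titles. For the same 6 genes the interaction was 2.14 (SE 0.64, adjusted p = 0.819) in Hmgn5, 1.38 (SE 0.54, adjusted p = 0.819) in Myc, -0.53 (SE 0.85, adjusted p = 0.886) in Bmp7, -0.90 (SE 0.51, adjusted p = 0.819) in Wnt16, -0.93 (SE 0.38, adjusted p = 0.819) in Igfbp6 and 0.29 (SE 0.60, adjusted p = 0.916) in Tnxb.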

How the data were processed

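Libraries came from RNA of integrity over 7.5 made with TruSeq kits that do not mark strand, so overlapping and antisense genes cannot be told apart. The submitters' processing notes name CASAVA 1.8.2, TopHat2 2.0.9, Cufflinks 2.1.1 and Cuffdiff 2.1.1 with build GRCm38 (mm10). The values are the deposited fragments per gene and library, which per the file headers are expected counts (94.3% whole). FPKM, per the file headers scaled by the authors, served 1 alternative. The authors' deposited start-site test table holds log2 values, p-values and q-values. Other columns, such as positions, are as deposited per the file headers.

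Of 25511 genes, 1714 without a symbol (2.69% to 3.10% of fragments) were left out and 407 carry several. After rounding, edgeR 4.0.16 (R 4.3.3) gave the tests, with TMM scaling, filterByExpr and a robust quasi-likelihood fit, in 1 fit of the 4 groups (11 distinct libraries, 13603 genes, 7 residual degrees of freedom, biological coefficient of variation 0.238). Calls need an adjusted p under 0.05. SE is the log2 difference over the square root of F. Alternatives used DESeq2 1.42.0, limma 3.58.1, other scaling, no filter, quality weights and leaving out each library. Named genes were the receptor family and Il6, the 10 highest and lowest by the gap between groups (mean of at least 5 CPM), the 10 of smallest p in each direction, and up to 3 of each of 28 lists; others were picked after their values were seen. Members and lists were chosen with earlier results of these data known. Libraries are not tied to sample titles by number. Same-numbered KO and WT libraries had correlated deviations of 0.0975, 0.480 and -0.316, so the numbers do not pair them. Values of some list members are not reported here.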

Additional observations from a re-analysis of the deposited data

How the results depend on the processing

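Calls between KO and WT in conditioned medium numbered 0 with all libraries and 0 to 4507 with 1 library left out; only leaving out KO library 0 gave calls. DESeq2 called 2 genes, and limma with sample quality weights 7517, where KO library 0 had a weight of 0.113 against 4.85 for KO library 1. Quality weights gave 2687 calls in unconditioned medium and 4422 for the interaction. Leaving out 1 library gave 0 to 2 and 0 to 1419 calls for these, and FPKM with limma gave 0 in unconditioned medium. With the replicate block in the fit, KO against WT in conditioned medium had 0 calls (806 genes at an unadjusted p under 0.05), and the pairing of libraries by number did not hold (correlations of 0.0975, 0.480 and -0.316). With only the 6 conditioned libraries 0 genes were called (780 at an unadjusted p under 0.05). F2rl1 turned positive without KO library 1, KO library 2 or WT library 1 (0.19 to 0.29), and its log2 difference ranged from -0.63 to 0.29 over the libraries left out. The direction of the other named genes held in every alternative run. Of 75 named genes tested, 47 were called without KO library 0 and 66 with quality weights. Of all genes, 33.2% were called without KO library 0 and 7517 of 13603 with quality weights. Many named genes were chosen by p or by gap in these same libraries, so their counts carry no test. The counts of genes whose libraries do not overlap stayed within 1.5 times under other scaling, FPKM and no filter. Genes of few fragments, such as F2rl1, are limited by depth.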

Other observations

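Among mitochondrial respiratory chain genes the changes without KO library 0 were mostly downward. Of 41 tested, 32 had negative log2 differences (median -0.16, ranging from -0.09 without WT library 0 to -0.23 without WT library 1), and 14 were called lower (34.1%) and 4 higher without KO library 0, against 15.9% and 17.3% of all genes. Cox6a1, a subunit of the last complex of the chain, was below WT in every KO library, at 143, 106 and 103 CPM in KO libraries 0 to 2 and 151, 143 and 146 in WT, as was Uqcrc2, a core subunit of the third complex, at 142, 116 and 108 against 154, 152 and 145. For Cox6a1, KO library 0 was practically level with WT library 1, at 143.1 against 143.5 CPM. Of 23 tested adipogenesis genes 2 were called higher (8.70%) and 5 lower (21.7%) without KO library 0, against 17.3% and 15.9% of all genes. Their median log2 difference with all libraries was -0.12. Klf15, a metabolic transcription factor, stood at 3.98, 28 and 34.7 CPM in KO and 4.83, 14.8 and 3.64 in WT, with KO library 0 within the WT range. Fabp4, a fatty acid carrier of fat cells, was at 5.60, 2.25 and 2.86 against 5.92, 5.60 and 8.01 CPM. Adipoq, the fat-cell hormone, was scarce, at 0.498, 0.304 and 0.162 CPM in KO and 0.965, 1.82 and 0.860 in WT, and lower in every KO library.

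Of the 30 genes tested of the Wnt pathway, 9 were called lower without KO library 0, against 15.9% of all genes, and 1 higher. Wnt4, a Wnt ligand, was lower in every KO library, at 4.92, 2.56 and 2.32 against 5.15, 5.47 and 5.03 CPM. Notum, which inactivates Wnt ligands, was at 7.03, 0.852 and 0.593 CPM in KO and 5.47, 1.55 and 11.2 in WT, and WT library 1 was low with KO libraries 1 and 2.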
